A study of Pimephales promelas with 20 samples.

Results

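The subject here is the set of 150 array probes whose signal varied most among untreated female fathead minnow livers. They were chosen on the authors' deposited log2 values of the 5 control arrays. Only probes for fish sequences that the scanner software marked as well above background on all 5 controls could be chosen, and the 150 with the highest control mean were left out. Of 15208 fish probes, 7622 met the background condition, 7472 remained without the brightest, and the 150 with the largest control standard deviation (SD) were taken, or 2.01% of the eligible probes.

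Fathead minnow (Pimephales promelas) is a small freshwater fish used in toxicity testing, and phenanthrene is a polycyclic aromatic hydrocarbon of oil and combustion residues. Liver RNA of females exposed for 48 h was hybridised to Agilent 1-colour arrays to follow gene expression over dose. There were 4 groups of 5 arrays, at 0 ng/L with no agent (replicates 3 to 7), 29 ng/L (replicates 22 to 26), 287 ng/L (replicates 27, 32, 35, 36 and 38) and 1006 ng/L phenanthrene (replicates 41, 42, 44, 45 and 46). All livers were female and all total RNA was extracted with Trizol. The labels name no strain, age or tank and do not say whether an array stands for 1 fish or a pool, so the spread between arrays may be technical and the p-values below measure only that spread.

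The liver makes most blood proteins, handles lipids and sterols, and breaks down foreign compounds. In egg-laying fish the female liver also makes yolk precursor proteins under the control of estrogen. Its RNA content is known to vary between animals with reproductive state and feeding. The probes carry array identifiers and sequence names, of which 0 could be matched to the gene table used here, so no probe is tied to any of these functions, and markers of liver or of other cell types could not be checked. In whole tissue, a lower level can mean fewer cells of a type or less RNA per cell, and these cannot be told apart.

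Between 57.4% and 84.1% of fish probes stood well above background on an array, and the 75th percentile of processed signal ran from 150.9 to 683 intensity units. Slides 3 and 4 each held 2 arrays of every group. The other 4 arrays lay on 3 slides scanned in a second session, and were replicate 6 of the controls, replicate 25 of 29 ng/L, replicate 36 of 287 ng/L and replicate 46 of 1006 ng/L. The array of 29 ng/L replicate 22 stood apart, with 201 of the 240 fish spots carrying an outlier mark in the whole series. Only 2 of the 3000 spots of the 150 probes were so marked, and 0 were saturated.

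The chosen probes had a median control SD of 2.25 log2 units in the deposited table (range 1.75 to 5.20), against 0.475 for the 7322 eligible probes not chosen and 0.264 for the brightest 150 left out. These are the values that made the choice. The last probes inside the threshold were UF_Ppr_AF_111475, UF_Ppr_AF_111137 and UF_Ppr_AF_105364, with control SDs of 1.763, 1.756 and 1.748. The first outside were UF_Ppr_AF_110206, UF_Ppr_AF_114979 and UF_Ppr_AF_101583, with 1.745, 1.737 and 1.726, so the list has no natural edge. The mean control level of the chosen probes had a median of 8.64 log2 units, against 8.17 for those not chosen. The label of most variable held among all eligible probes as well, since 146 of the 150 stayed when the brightest were kept in.

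The choice leaned on single control arrays. Control replicate 3 was the array farthest from the control mean for 73 of the 150 probes, or 48.7%, against 25.3% of the probes not chosen. It was the lowest control for 81 of them. Control replicate 6 was the highest for 67. When the list was chosen again without 1 control, 97 of the 150 probes stayed without replicate 3, 117 without replicate 6, 129 without either replicate 4 or replicate 5, and 137 without replicate 7. For 24 probes the SD dropped under 1 log2 unit once a single control was left out.

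The probe with the largest control SD was UF_Ppr_AF_107674. Its normalised log2 signal was 17.41, 6.39, 15.95, 7.82 and 7.95 in control replicates 3 to 7. It was 10.88, 11.29, 9.02, 5.10 and 7.29 at 29 ng/L, 12.50, 12.41, 13.72, 10.56 and 7.89 at 287 ng/L, and 7.24, 7.17, 8.43, 11.93 and 5.43 at 1006 ng/L. Control replicates 3 and 5 lay above every exposed array and the other controls lay among the exposed ones. Its SD was 5.15 in controls and 2.57, 2.27 and 2.42 with rising dose.

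UF_Ppr_AF_109752 owed its place to 1 array. It read 15.39 in control replicate 3 and 10.53, 9.54, 9.81 and 9.85 in replicates 4 to 7. The 15 exposed arrays lay between 8.26 and 10.02, the narrowest spread of any of the 150 probes (pooled SD 0.546). UF_Ppr_AF_103955 was similar in the other direction, at 3.51 in control replicate 4 and 12.58 to 14.999 in the other controls. It read 12.52 to 14.67 at 29 ng/L, 12.88 to 13.92 at 287 ng/L and 12.15 to 13.54 at 1006 ng/L, except for 7.54 in 1006 ng/L replicate 42.

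**Figure D1:**
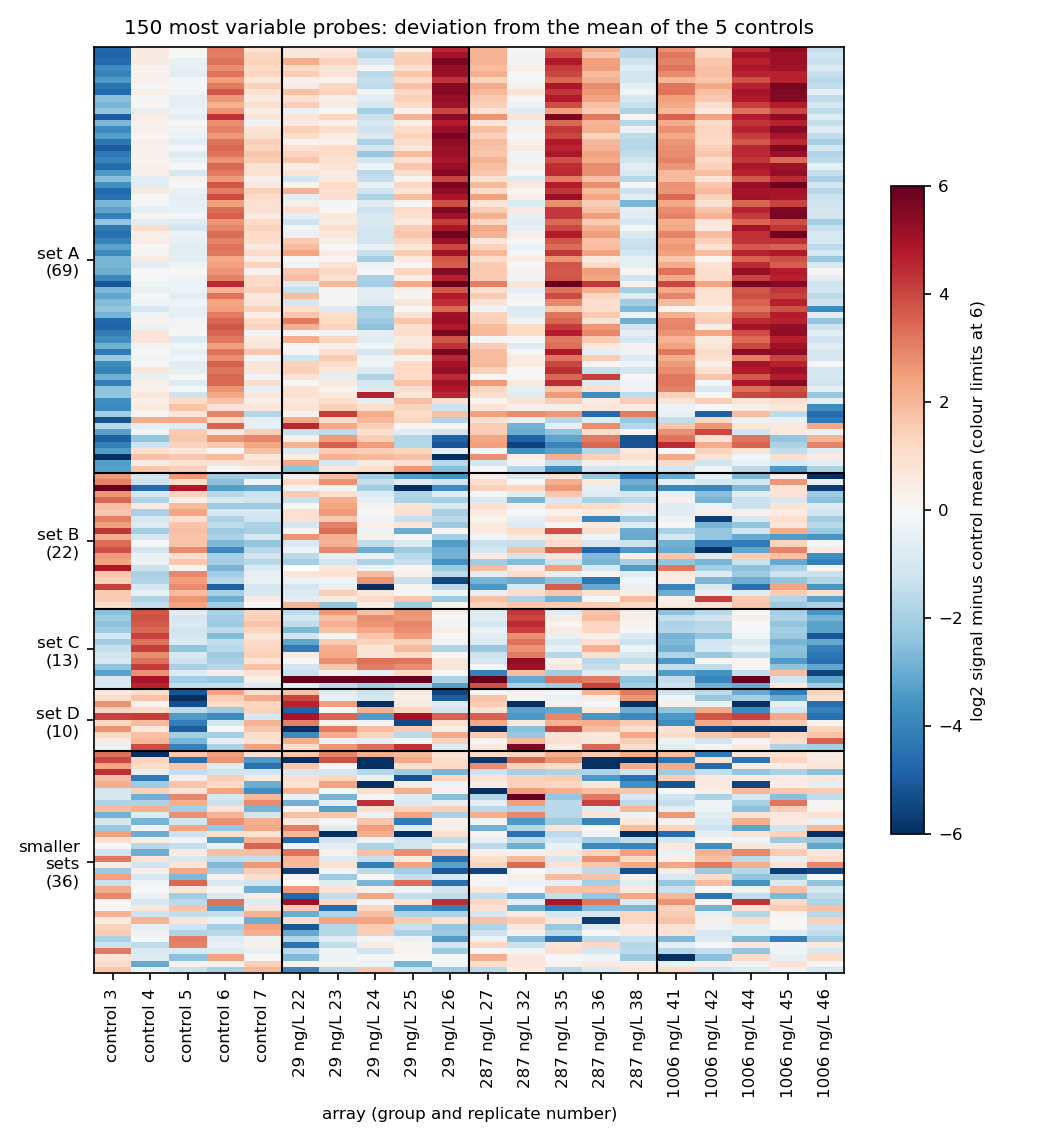
Deviation of each of the 150 probes (rows) from its mean over the 5 controls, in log2 units of normalised signal, on the 20 arrays (columns, by group and replicate number). Rows are ordered by the sets formed on the control arrays; most of the 69 probes of set A are low together on control replicate 3 and high together on 29 ng/L replicate 26, 287 ng/L replicate 35 and 1006 ng/L replicates 44 and 45.

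To see how the probes varied together, they were grouped by their correlation over the 5 controls (average linkage, divided at a height of 0.5). This gave set A with 69 probes, set B with 22, set C with 13, set D with 10, and 36 probes in smaller sets. Correlations over 5 arrays are high by construction here, so the sets were then looked at on the 15 exposed arrays, which neither the choice nor the grouping had used. There, with each dose's mean removed, the median correlation between pairs of set A was 0.918, and that of set C was 0.718. It was 0.332 in set B and -0.088 in set D, against -0.0017 between all eligible probes. Between sets the medians lay from -0.117 (C and D) to 0.084 (A and B). These correlations are across arrays that each probe pair shares, so a bright or dim array enters every pair.

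**Figure D2:**
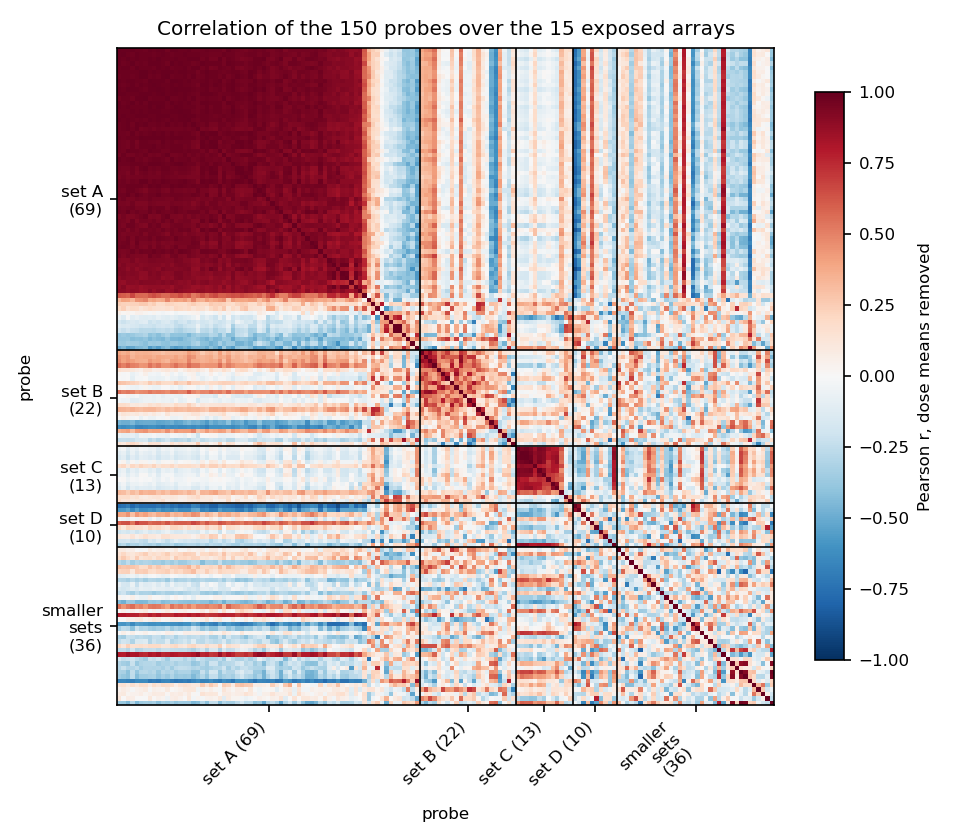
Pearson correlation of every pair of the 150 probes over the 15 exposed arrays after removal of each dose's mean (colour, -1 to 1), ordered by the sets formed on the controls. A block of 56 probes of set A and a smaller block in set C stand out, while sets B and D form no comparable block.

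Set A was the main shared pattern. On the exposed arrays 56 of its 69 probes followed the mean of the others with a correlation above 0.8, and pairs among these 56 had a median of 0.952 and a lowest value of 0.710. The other 13 did not follow at that level, and 8 of them had a correlation below 0, the lowest at -0.455. All 69 were lowest in control replicate 3 and 61 were highest in control replicate 6. The first principal component over the exposed arrays held 44.5% of the 150 probes' variance within doses, against 34.7% for all eligible probes. How far set A makes up that component was not computed.

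UF_Ppr_AF_117125 was the probe of set A most correlated with the rest. It read 6.36, 11.69, 11.19, 14.24 and 11.94 in control replicates 3 to 7, and 11.78, 11.64, 9.63, 11.41 and 15.64 at 29 ng/L. It read 13.18, 11.13, 14.75, 13.24 and 9.53 at 287 ng/L, and 13.85, 12.18, 15.51, 16.44 and 9.67 at 1006 ng/L. Each exposed group held both a low and a high array, and all 3 overlapped the controls. Its mean was 11.08 ± 2.89 in controls and 12.02 ± 2.20, 12.37 ± 2.04 and 13.53 ± 2.70 with 29, 287 and 1006 ng/L (SD, n = 5 each).

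Averaged over the 69 probes, the deviation of set A from its control mean was -3.65 in control replicate 3, 0.12 in replicate 4, -0.11 in replicate 5, 2.79 in replicate 6 and 0.85 in replicate 7. At 29 ng/L it ran from -0.62 to 3.72, at 287 ng/L from -0.94 to 3.03 and at 1006 ng/L from -1.17 to 3.84. Each exposed group thus had arrays about 4 to 5 log2 units apart: the 4 highest were 1006 ng/L replicate 45 at 3.84, 29 ng/L replicate 26 at 3.72, 1006 ng/L replicate 44 at 3.67 and 287 ng/L replicate 35 at 3.03. Over all groups, slide 3 ran from -3.65 (control replicate 3) to 3.84 (1006 ng/L replicate 45). Slide 4 ran from -0.11 (control replicate 5) to 3.72 (29 ng/L replicate 26). The 2 arrays of slide 3 read 0.73 and -0.62 at 29 ng/L, -0.24 and -0.94 at 287 ng/L, and 2.33 and 3.84 at 1006 ng/L. Those of slide 4 read 0.81 and 3.72, 1.49 and 3.03, and 1.11 and 3.67. At 29 and 287 ng/L both arrays of slide 4 thus lay above both of slide 3. Of the 4 highest arrays, 1006 ng/L replicate 45, 287 ng/L replicate 35 and 29 ng/L replicate 26 were the brightest of the series. Their 75th percentiles were 683, 534 and 510 intensity units before normalisation. By contrast, 1006 ng/L replicate 44 had 246, and control replicates 3 and 6, at the 2 ends of the controls, had 324 and 323. The part of slide and of array brightness in the shared pattern was not tested.

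The pattern of set A extended beyond the chosen list. Of the 7322 eligible probes not chosen, 542 (7.40%) followed its mean with a correlation above 0.8 on the exposed arrays, and 94 (1.28%) ran against it below -0.8. Of the 542, 232 (42.8%) were lowest in control replicate 3 and 427 (78.8%) highest in control replicate 6, against 26.6% and 24.5% of all probes not chosen. Few probes outside the list followed the other sets: 12 for set B, 1 for set C and 2 for set D.

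Set C, of 13 probes, was marked in the controls by a high replicate 4. UF_Ppr_AF_116990, its most typical probe, read 8.43, 14.68, 10.32, 9.08 and 12.26 in control replicates 3 to 7. It read 9.42, 13.57, 12.70, 13.59 and 11.24 at 29 ng/L, 10.24, 15.22, 10.23, 12.66 and 11.34 at 287 ng/L, and 8.49, 9.33, 11.08, 8.89 and 7.42 at 1006 ng/L. The 1006 ng/L arrays were mostly low and overlapped the lower arrays of every other group. On the exposed arrays 7 of the 13 probes followed the mean of the others above 0.8, and a pair among these 7 had a median correlation of 0.927.

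Set B, of 22 probes, was high in control replicates 3 and 5. UF_Ppr_AF_116891 read 10.12, 6.52, 10.09, 5.50 and 5.54 in control replicates 3 to 7, 7.97, 9.38, 5.58, 4.20 and 3.95 at 29 ng/L, 7.96, 6.73, 8.33, 5.28 and 3.38 at 287 ng/L, and 4.54, 7.02, 4.87, 7.83 and 1.06 at 1006 ng/L. All 4 groups overlapped. Only 2 of the 22 probes followed the mean of the others above 0.8 on the exposed arrays.

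Set D, of 10 probes, was low in control replicate 5. UF_Ppr_AF_114374 read 14.16, 14.79, 6.51, 14.56 and 15.33 in control replicates 3 to 7. At 29 ng/L it read 17.08, 12.57, 12.03, 13.48 and 8.12, at 287 ng/L 14.78, 12.91, 12.68, 13.40 and 15.71, and at 1006 ng/L 12.79, 10.79, 11.06, 10.09 and 13.96. None of the 10 probes followed the others above 0.8 on the exposed arrays, so the set formed in the controls was not seen again there.

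The place of sets A, C and D in the list rested on single controls. Without control replicate 3, 28 of the 69 probes of set A were chosen again, and without replicate 6, 45 were. Without control replicate 4, 2 of the 13 probes of set C were chosen again, and without replicate 5, 2 of the 10 of set D.

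**Figure D3:**
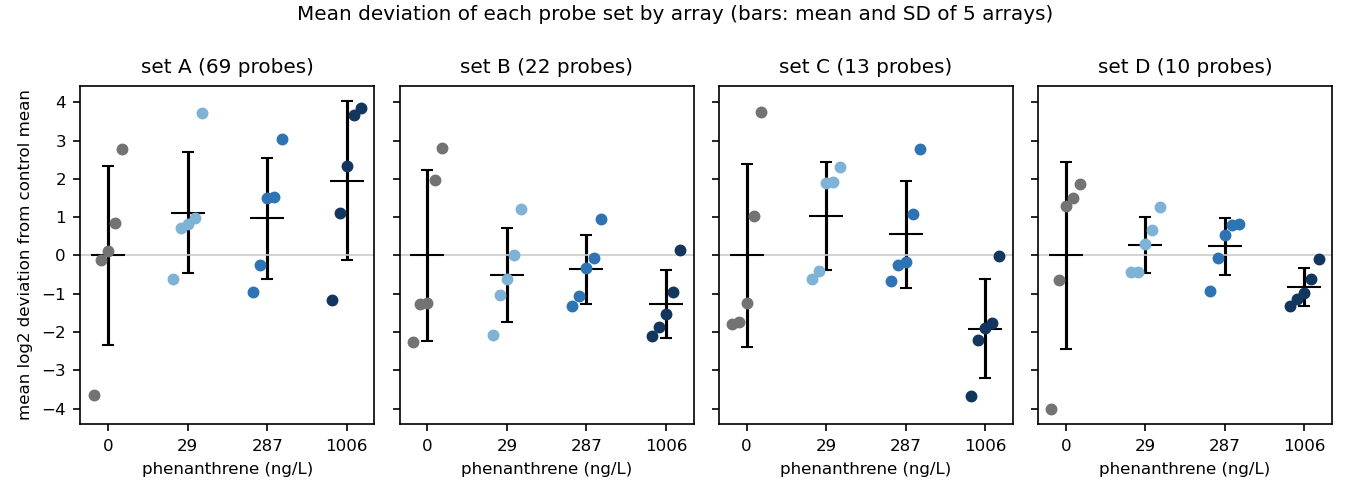
Mean log2 deviation from the control mean over the probes of sets A, B, C and D, 1 point per array, at 0, 29, 287 and 1006 ng/L phenanthrene. The horizontal line and bar of each group give the mean and SD of its 5 arrays; in set A each exposed group spans about 4 to 5 log2 units, and in set C the 1006 ng/L arrays lie between -3.67 and -0.02.

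The sequence names in the files are not explained there. If the part before the last C number (FJU.718 in FJU.718.C4) is read as a shared sequence group, 139 of the 150 probes had such a name, in 133 groups. In 5 groups there was more than 1 chosen probe, always of the same set. The 3 probes named for FJU.718, all in set A, correlated at 0.945 to 0.987 on the exposed arrays. Pairs named for FJU.30, FJU.7 and FJU_SB_30.1, also in set A, correlated at 0.987, 0.978 and 0.980, and the pair of FJU.513, in set D, at 0.892. That last pair was UF_Ppr_AF_114374 and UF_Ppr_AF_112509, which moved together although set D as a whole did not. By position, between 20.3% and 31.9% of set A lay in each of 4 equal parts of the array, against 24.1% to 25.8% of eligible probes. Crowding was not tested, and parts this large could not show it locally.

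High spread in the controls went with high spread at each dose. On the normalised values the median SD over 5 arrays was 2.28 in controls for the 150 probes, and 2.17, 1.91 and 2.24 with 29, 287 and 1006 ng/L. Probes not chosen had medians of 0.476, 0.694, 0.498 and 0.601 in the same order of dose. With the comparison narrowed to the 3515 of them whose control mean lay within the quartiles of the chosen probes, the medians at the 3 doses were 0.660, 0.459 and 0.551. The SD was above 1 log2 unit in 137, 125 and 129 of the 150 probes at the 3 doses, or 91.3%, 83.3% and 86.0%, against 24.6%, 15.3% and 19.0% of the probes not chosen. These figures are a description, with no test.

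Most probes spread a little less when exposed, which follows from choosing high control SDs and is no finding. The SD lay below the probe's own control SD in 101, 119 and 101 probes at 29, 287 and 1006 ng/L, with median ratios of 0.893, 0.788 and 0.899. Ranked by pooled SD over the exposed arrays, 83 of the 150 (55.3%) were among the 150 most variable eligible probes, a list that holds 2.01% of the eligible probes. In the top 10% were 131, and 149 lay above the eligible median of 0.665. The median rank was 122.5 and the lowest 4872. The 150 probes held 12.1% of the variance within doses of all eligible probes.

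By set, the pooled SD on the exposed arrays had a median of 2.23 in set A, 1.72 in B, 1.80 in C, 2.27 in D and 1.85 in the smaller sets. The probes most variable on exposed arrays were UF_Ppr_AF_100566 at 4.73, UF_Ppr_AF_119087 at 4.54 and UF_Ppr_AF_108364 at 4.29. The least variable, beside UF_Ppr_AF_109752, were UF_Ppr_AF_116100 at 0.7501 and UF_Ppr_AF_103092 at 0.799. UF_Ppr_AF_116100 read 11.15 in control replicate 3 and 14.26 to 16.65 on every other array of the series.

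**Figure D4:**
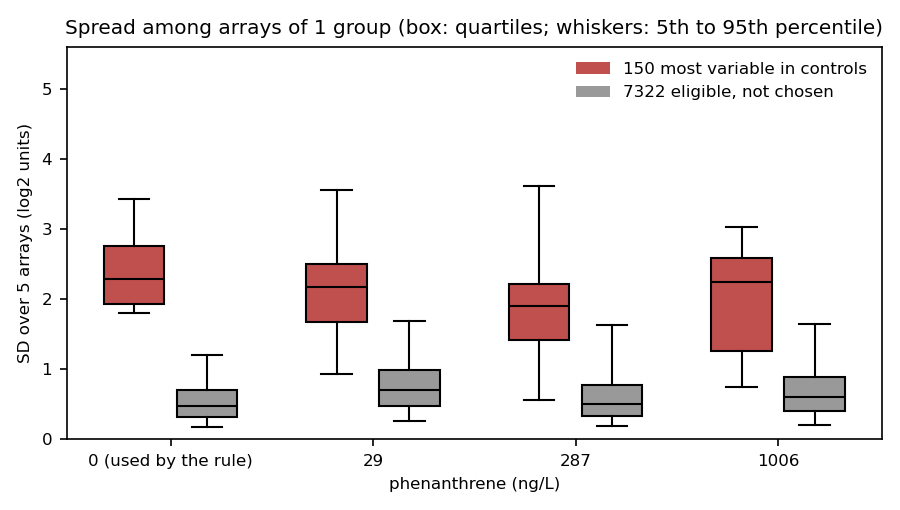
SD over the 5 arrays of a group, in log2 units, for the 150 chosen probes (red) and the 7322 eligible probes not chosen (grey) at 0, 29, 287 and 1006 ng/L phenanthrene. Boxes give the quartiles and median and whiskers the 5th to 95th percentile; the control SDs made the choice, and at each dose the median of the chosen probes (2.17, 1.91 and 2.24) lies above that of the others (0.694, 0.498 and 0.601).

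In some probes the exposed arrays fell into a low and a high set of values. Over the 15 exposed arrays, 19 of the 150 probes (12.7%) had an empty interval of at least 2 log2 units with at least 3 arrays on each side, against 10 of the 7322 probes not chosen (0.137%). Intervals of at least 3 log2 units were found in 10 of the 150 and 0 of the others. A probe with a large SD can hold such an interval more easily, so these counts describe the form of the spread and are no separate finding.

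The widest was in UF_Ppr_AF_118356. It read 17.91, 16.46, 9.56, 17.99 and 16.50 at 29 ng/L (replicates 22 to 26), 16.52, 9.52, 15.85, 9.45 and 9.08 at 287 ng/L, and 9.501, 16.69, 17.03, 15.26 and 8.51 at 1006 ng/L. Thus 9 exposed arrays lay at 15.26 or above and 6 at 9.56 or below, with 5.70 log2 units between them, or 51.9-fold. The controls read 17.00, 17.13, 9.57, 9.21 and 11.91 in replicates 3 to 7, so 1 of them fell well inside the empty interval. All 6 low exposed arrays were still well above background for this probe. Among the exposed arrays, all 6 of slide 4 were high, while on slide 3 2 were high and 4 low. The controls of slide 4, replicates 4 and 5, read 17.13 and 9.57, and the part of slide was not tested. The next widest interval was in UF_Ppr_AF_100566, with 8 exposed arrays at 11.26 to 14.60 and 7 at 1.30 to 6.39. It measured 4.86 log2 units or 29.1-fold, but only 5 of the 7 low arrays were well above background.

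In most of these probes no dose, and neither slide 3 nor slide 4, lay wholly on 1 side of the interval. An uneven division still counts as lying on both sides, and the part of dose and of slide was not tested. Arrays of every dose lay on both sides in 15 of the 19, arrays of slide 3 on both sides in 18 and arrays of slide 4 on both sides in 14. Controls lay on both sides in 12, and in 5 of the 19 no control lay inside the empty interval, while the other 14 had at least 1 control inside it. The divisions also differed between probes: of 171 pairs of the 19 probes, 1 pair, UF_Ppr_AF_117573 and UF_Ppr_AF_115478, divided the exposed arrays in the same way. Of the 19, 4 belonged to set A, 0 to B, 2 to C, 4 to D and 9 to the smaller sets. In 10 of them every exposed array on the low side was well above background, and in the other 9 some were not.

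**Figure D5:**
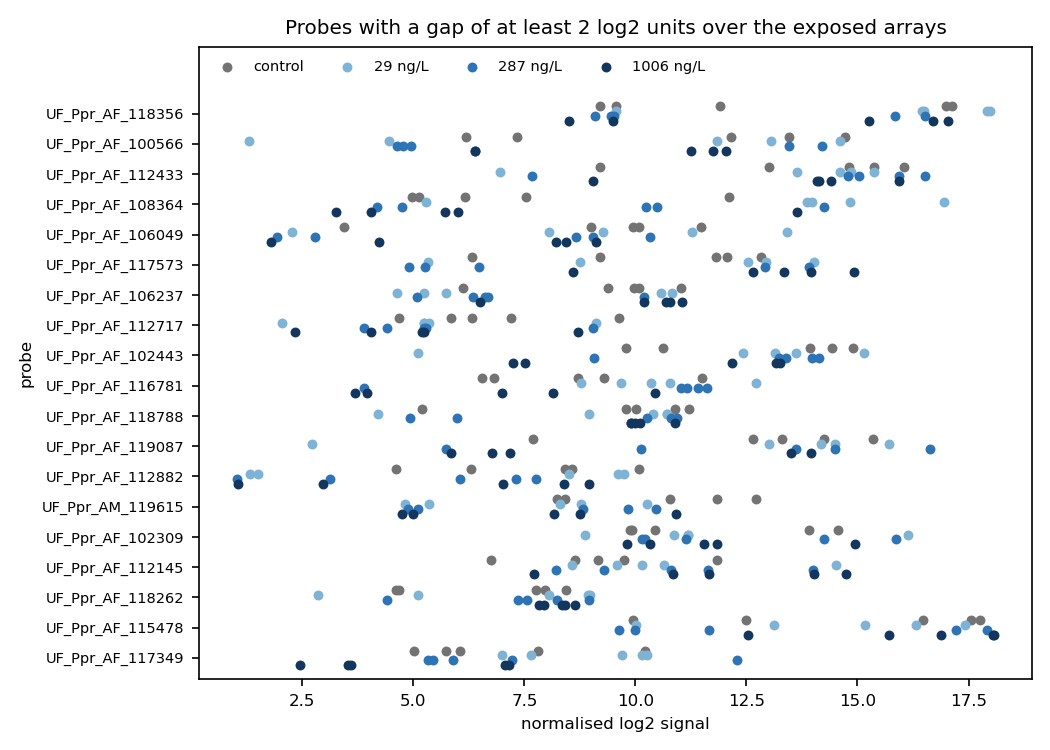
Normalised log2 signal (horizontal axis) of the 19 probes with an empty interval of at least 2 log2 units over the 15 exposed arrays, 1 point per array, coloured by group. In UF_Ppr_AF_118356, at the top, 9 exposed arrays lie at 15.26 to 17.99 and 6 at 8.51 to 9.56, with arrays of all 3 doses on both sides.

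Differences with dose were then tested with limma on all 10867 probes that were well above background on 4 or more arrays of some group, with p-values adjusted by the Benjamini-Hochberg method over all of them. Comparisons with the controls share the same 5 arrays, and those arrays chose the probes, so their counts are a description. Choosing high control SDs raises the pooled spread of the 150 probes, which can lower their counts whatever their response to dose. At 29 ng/L the median SE of a difference was 1.28 log2 units for the 150, against 0.447 over all probes tested. The spread of the 150 was also high on the exposed arrays, with a median pooled SD of 2.13 against 0.657 for eligible probes not chosen. How much of the SE comes from the choice was not tested. The shares below are therefore no measure of a weaker or stronger response. At 29 ng/L against controls 0 of the 150 probes passed an adjusted p under 0.05, as did 0% of all probes tested, with 4 of the 150 at an unadjusted p under 0.05 (2.67%, against 5.63% of all). At 287 ng/L it was 0 of 150 and 0% of all, with 4 unadjusted (2.67%, against 5.45%). At 1006 ng/L it was 0 of 150, against 0.202% of all, with 9 unadjusted (6%, against 13.0%). An ordinary linear model also called 0 of the 150 in each comparison, with the spread of the controls again in its estimate.

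Precision was low for these probes. The median half-width of the 95% interval of a difference was 2.67 log2 units at 29 ng/L and 2.66 at the other doses, against 0.935 and 0.934 over all probes tested. These are intervals of single probes, not adjusted for the number of tests. At 29 ng/L 98 probes were higher than in controls and 52 lower, with a median difference of 0.59 and a range of -2.90 to 5.80. At 287 ng/L 101 were higher and 49 lower (median 0.67, range -2.58 to 2.84), and at 1006 ng/L 81 were higher and 69 lower (median 0.38, range -3.20 to 3.28). Over all probes tested the medians were 0.03, -0.04 and -0.03. Leaving out control replicate 3 alone brought the medians of the 150 to 0.17, 0.21 and 0.48 at 29, 287 and 1006 ng/L. Without control replicate 6 the median at 1006 ng/L was 0.15. Within slide 3 alone the 3 medians were 0.68, 0.47 and 0.70 with rising dose, and within slide 4 alone 1.32, 1.42 and 0.79.

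The sets leaned different ways. The median difference from controls in set A was 1.25, 1.24 and 2.25 at 29, 287 and 1006 ng/L, with 65, 59 and 63 of its 69 probes higher. Leaving out each control in turn gave 0.33 to 2.02, 0.28 to 1.98 and 1.34 to 2.92, the lowest without replicate 3 and the highest without replicate 6. In set B the medians were -0.25, -0.19 and -1.15, with 9, 8 and 2 of 22 probes higher. Leaving out each control gave -0.74 to 0.53, -0.77 to 0.25 and -1.64 to -0.58, and the sign turned at both lower doses without replicate 3 (0.53 and 0.25) or replicate 5 (0.17 at both). In set C the medians were 0.94, 0.37 and -1.91, with 10, 12 and 0 of 13 higher. Leaving out each control gave 0.52 to 1.78, -0.003 to 1.498 and -2.44 to -0.98. The highest of these came without replicate 4, while at 287 ng/L the median was -0.003 without replicate 5 and 0.004 without replicate 6. In set D the medians were -0.09, 0.72 and -1.07, and leaving out each control gave -1.08 to 0.31, -0.49 to 1.15 and -2.02 to -0.36. The lowest of each came without replicate 5. At 29 ng/L set D was at 0.24, 0.17 and 0.31 without replicates 3, 4 and 7, and at 1006 ng/L at -0.36 and -0.48 without replicates 4 and 7. At 1006 ng/L the median within slides 3 and 4 was 4.86 and 2.79 in set A, -1.20 and -2.02 in set B, -1.65 and -2.23 in set C, and -2.51 and 0.07 in set D. Each of these sets 2 arrays against 2. In set A they leave out the highest control (replicate 6, mean deviation 2.79) and the lowest 1006 ng/L array (replicate 46, -1.17). The controls of slide 3 include replicate 3, at -3.65 in set A. At 29 and 287 ng/L the slides disagreed in sign in sets C and D. Probes of every set moved together on the controls, and most of sets A and C also did on the exposed arrays. These counts therefore stand for few independent observations.

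The largest single difference was in UF_Ppr_AF_108364, of set C. It read 16.95, 14.83, 13.86, 13.97 and 5.29 at 29 ng/L (replicates 22 to 26), against 6.16, 12.10, 5.13, 4.97 and 7.53 in control replicates 3 to 7. It read 14.24, 4.17, 10.49, 10.23 and 4.74 at 287 ng/L and 5.72, 3.26, 13.64, 5.998 and 4.05 at 1006 ng/L. At 29 ng/L, 4 arrays lay above every control, and replicate 26 lay among the low controls. The difference at 29 ng/L was 5.80 (SE 2.32), at a limma adjusted p of 0.881, the lowest value reached by any of the 150 at that dose.

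UF_Ppr_AF_102386, of set B, had the lowest adjusted p of the 150 at 1006 ng/L. It read 6.63, 6.19, 7.64, 5.95 and 4.93 at 1006 ng/L (replicates 41, 42, 44, 45 and 46), against 11.42, 8.68, 10.60, 6.98 and 7.29 in control replicates 3 to 7. Control replicates 3, 4 and 5 lay above all 15 exposed arrays, and replicates 6 and 7 lay among them. The difference at 1006 ng/L was -2.73 (SE 0.74), at a limma adjusted p of 0.135, and it did not pass.

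Comparisons between doses use no control mean, so the choice of the probes bears on them only through the shared estimate of spread. With limma, 0 of the 150 probes passed at 287 against 29 ng/L (0% of all probes tested, 1 of the 150 at an unadjusted p under 0.05), 0 at 1006 against 29 ng/L (0% of all, 14 unadjusted) and 0 at 1006 against 287 ng/L (0% of all, 11 unadjusted). The unadjusted shares were 0.667%, 9.33% and 7.33% of the 150, against 4.24%, 8.91% and 4.76% of all probes tested. An F test over the 15 exposed arrays alone also called 0 of the 150 and 0% of all, with 13 of the 150 unadjusted (8.67%, against 4.80% of all). The ordinary linear model called 0 in each of these as well.

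Set C held most of the probes with low unadjusted p-values between doses. At 1006 against 29 ng/L its median difference was -3.02 log2 units, with 12 of 13 probes lower. At an unadjusted limma p under 0.05 were 10 of the 13, against 8.91% of all probes tested. At 1006 against 287 ng/L its median difference was -2.56, with all 13 lower and 7 unadjusted, against 4.76% of all. In the F test 9 of the 13 probes of set C had an unadjusted p under 0.05, against 4.80% of all probes tested. The whole list of 150 also held 13 such probes, these 9 among them. Most of set C moved together on the exposed arrays, so these counts stand for few independent observations. The lowest limma adjusted p was 0.337, for UF_Ppr_AF_105101, so 0 probes of set C passed. Its mean was 4.45 ± 1.14 under 1006 ng/L against 7.89 ± 0.84 under 29 ng/L (SD, n = 5 each).

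As means over the 13 probes, set C deviated from its control mean by -2.20, -1.89, -0.02, -1.76 and -3.67 at 1006 ng/L (replicates 41, 42, 44, 45 and 46), against -0.61, 1.93, 1.89, 2.32 and -0.42 at 29 ng/L (replicates 22 to 26). The controls read -1.79, 3.75, -1.25, -1.73 and 1.02 in replicates 3 to 7, and the 287 ng/L arrays ran from -0.67 to 2.77. The array of 1006 ng/L replicate 44 lay above the lower pair of 29 ng/L arrays, and the controls ran from -1.79 to 3.75. Set A was higher at 1006 ng/L by medians of 1.07 against 29 ng/L and 1.07 against 287 ng/L, with 60 and 62 of its 69 probes higher and 0 passing. The slides differed in this. Its slide 3 arrays averaged 0.73 and -0.62, -0.24 and -0.94, and 2.33 and 3.84 with rising dose. Its slide 4 arrays overlapped between doses, at 0.81 and 3.72, 1.49 and 3.03, and 1.11 and 3.67. The exposed arrays of the second session read 0.97, 1.53 and -1.17. Most of its probes moved together, so 60 and 62 stand for few independent observations.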

How the data were processed

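Liver RNA was measured on 20 Agilent 1-colour arrays with 15208 fish probes and 536 control spots. The authors deposited scanner output with intensity values per spot, extracted with Agilent Feature Extraction 10.7.1.1, background-subtracted and detrended within the array but not scaled between arrays, per the file headers. The authors also deposited a log2 table that the labels call loess normalized, with settings not given in the sources used here, which chose the probes. Its 1 column of no sample was not used.

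All other values are log2 processed signal from the scanner output, with control spots left out, spots marked as outliers set to missing, and cyclic loess between arrays, in R 4.3.3 with limma 3.58.1. Descriptions were computed in python 3.11.15 with numpy 2.4.6, scipy 1.17.1 and pandas 2.3.3. Groups came from the dose label and replicate numbers from the titles. One linear model over all 20 arrays, with no covariate, gave each comparison by lmFit and eBayes (two-sided, called at an adjusted p under 0.05), and the F test used the 15 exposed arrays. The tests were tried on simulated data with independent normal noise for each probe. Those data lack the shared movement of probes and the single far arrays seen here, so they do not check the tests under these. Brightness over background and 5 arrays per group limit the precision.

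The probes, sets and tests were chosen with earlier results of these data known. Probes were named by rule: the 5 largest control SDs, those beside the threshold, the 3 largest differences in each direction at each dose, the 3 most typical of each set, and the 3 highest and lowest exposed SDs, of which some are shown. Probes with an empty interval or the lowest p-value were named after their values were seen. Alternatives were the deposited table, 75th percentile scaling, normexp with quantile normalisation, other filters, an ordinary linear model, slide and scan session as blocks, each of slides 3 and 4 alone, each array left out, and other ways to choose the list. Lists of named genes and cell types could not be applied, since no probe has a gene name here.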

Additional observations from a re-analysis of the deposited data

Results flagged for a closer look

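From 12 of the named probes and the 4 sets of probes, 64 groups of 5 values were looked at for a single array far from the other 4. The limit was a gap over 0.71 of the whole range, and 7 groups passed it. Chance gives such a gap in about 1 of 20 groups of unselected values. That rate does not apply here, since these probes were selected for wide spread. Other named probes were left out of this search, so 7 of 64 is no rate for all of them. Among those left out, UF_Ppr_AF_109752 read 15.39 in control replicate 3 and 9.54 to 10.53 in the other controls. UF_Ppr_AF_114374 read 6.51 in control replicate 5 and 14.16 to 15.33 in the other controls. UF_Ppr_AF_103955 read 7.54 in 1006 ng/L replicate 42, against 12.15 to 13.54 in the other arrays of that dose, and 3.51 in control replicate 4, against 12.58 to 14.999 in the other controls. At 29 ng/L, UF_Ppr_AF_118356 read 9.56 and UF_Ppr_AF_107905 read 6.61 in replicate 24, while the other 4 arrays lay at 16.46 to 17.99 and at 12.13 to 13.93. UF_Ppr_AF_119087 read 2.71 in 29 ng/L replicate 22, where it was not well above background, and 13.02 to 15.70 in the others. UF_Ppr_AF_108364 read 5.29 in 29 ng/L replicate 26 and 13.86 to 16.95 in the others, and 13.64 in 1006 ng/L replicate 44 and 3.26 to 5.998 in the others. All probes searched had been chosen for wide spread in the controls or shown for wide spread elsewhere.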

How the results depend on the processing

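In each comparison 0 of the 150 probes (118 where probes had to be well above background on all arrays) passed under 31 alternatives each, leaving out each array included (0 to 0), except that slide 3 alone called 1 probe at 287 against 29 ng/L (UF_Ppr_AF_108364, difference -10.95, limma adjusted p = 0.0457). That call rests on 2 arrays per dose, at 4.17 and 4.74 against 16.95 and 13.86. On slide 4 the probe's doses overlapped, at 14.24 and 10.49 for 287 ng/L against 14.83 and 5.29 for 29 ng/L. Leaving out 1 array at a time gave median differences from controls of 0.17 to 0.85 at 29 ng/L, 0.21 to 0.98 at 287 ng/L and 0.15 to 0.50 at 1006 ng/L, a median exposed SD of 1.90 to 2.21, a first component of 40.4% to 48.6%, a median correlation of 0.864 to 0.922 over all pairs within sets, most of which are pairs of set A, and 97 to 137 probes chosen again. Within slide 4 alone the median difference at 29 ng/L was 1.32. The median exposed SD was 1.71 with normexp and quantile normalisation, against 2.13, and 62 probes were chosen again by the median absolute deviation. The other alternatives kept each of these within the spread between arrays. For sets, added after the data were seen, slide 3 and slide 4 alone gave opposite signs in set C at 29 ng/L (0.53 and -0.41) and 287 ng/L (1.74 and -1.89), and in set D at 29 ng/L (-0.63 and 1.40), 287 ng/L (-0.89 and 1.71) and 1006 ng/L (-2.51 and 0.07). The causes were not tested. On at least 1 exposed array 32 of the 150 probes were not well above background, and their low values there are uncertain. No paired analysis was possible because the groups share no replicate numbers; fits with slide or scan session as a block are among the 31 alternatives.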
